A study of Mus musculus with 6 samples.

Results

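The genes described are 9 regulators of multiciliation, taken from the deposited table by their symbols: Gmnc, Mcidas, Trp73, Foxj1, Ccno, Cdc20b, Myb, Rfx2 and Rfx3. All 9 were present among 24444 gene symbols. They were compared between 3 libraries labelled Arl13b-/- and 3 labelled Wild-type, all of poly(A) RNA from the telencephalon of C57BL/6J mouse embryos at E12.5. The product of Arl13b is a small GTPase that resides in primary cilia, and the labels name no allele, Cre line or pooling of embryos for either group. The study concerned neuronal primary cilia and the growth of axon tracts. Whether the libraries of a group came from separate embryos is not stated, so the spread between them may be partly technical. In bulk tissue, fewer cells of a type and less RNA per cell cannot be told apart.

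Multiciliated cells carry many motile cilia, which move fluid across the epithelia of the airway, the oviduct and the brain ventricles. Gmnc (also called GEMC1) and Mcidas (multicilin), coiled-coil relatives of geminin, act with E2F4 or E2F5 and start the program. Trp73 and Foxj1 follow as transcription factors, Ccno and Cdc20b serve the amplification of centrioles that become basal bodies, and RFX factors act with Foxj1 on the genes of the ciliary axoneme. In the embryonic forebrain the first multiciliated cells form in the choroid plexus, and Trp73 is also a known gene of Cajal-Retzius cells.

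Arl13b-/- 2 and Wild-type 1 stood apart from the other 4 libraries. Across the 14249 genes kept for testing, which are not replicates, Arl13b-/- 2 correlated with those 4 at 0.702 to 0.722 and Wild-type 1 at 0.880 to 0.898, whereas the 4 correlated with each other at 0.985 to 0.995. The values were deposited on a variance-stabilised log2 scale, and undoing that transformation gave the normalised counts used below. The estimated depth was 27600000 to 47400000 reads in the Arl13b-/- libraries and 35500000 to 51700000 reads in the Wild-type libraries, and 1 read was worth 0.536 to 1.31 normalised counts. Arl13b itself had 492, 532 and 564 normalised counts in Arl13b-/- 1 to 3, against 661, 553 and 560 in Wild-type 1 to 3. Those gene-level values differed by −0.14 ± 0.20 (SE) on the log2 scale (limma, adjusted p = 0.990), which leaves the genotype labels without a check. Emx1, a defining transcription factor of the dorsal telencephalon, had 145, 2641 and 25.0 normalised counts in Arl13b-/- 1 to 3, against 633, 875 and 1161 in Wild-type 1 to 3, so this marker was lowest in Arl13b-/- 3. The 8 defining telencephalon genes, Emx1 among them, all had differences below 0, with a median of −1.39 over 6 libraries and −0.98 over the 4 without Arl13b-/- 2 and Wild-type 1. None passed in limma in either comparison (0 and 3 with an unadjusted p under 0.05). Over 6 libraries 0 of the 8 were lower in Arl13b-/- without overlap of the groups, against 3.59% of all genes kept, and over 4 libraries 5 of the 8 were, or 62.5%, against 18.1%. Their summed level was 10640 to 26433 normalised counts in Arl13b-/- and 24414 to 35206 in Wild-type, and none was at 0. The part of this difference in tissue markers in the values of the 9 genes was not tested.

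Gmnc, Mcidas, Ccno, Cdc20b and Trp73 had their highest values in Wild-type 2 and 3, and all 3 Arl13b-/- libraries lay far below those 2. In ratio of mean normalised counts over 6 libraries Foxj1 was lower in Arl13b-/- by less than these 5, at 0.519 against 0.144 to 0.211, and Rfx2, Rfx3 and Myb in Arl13b-/- 1 and 3 were close to Wild-type 2 and 3. The 9 genes were chosen by their function together with the known values of this same contrast, in which Trp73 and Ccno stood out, so their differences are described here without a test. A difference is the mean variance-stabilised value in Arl13b-/- minus that in Wild-type, which understates the change of genes with low counts.

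**Figure D1:**
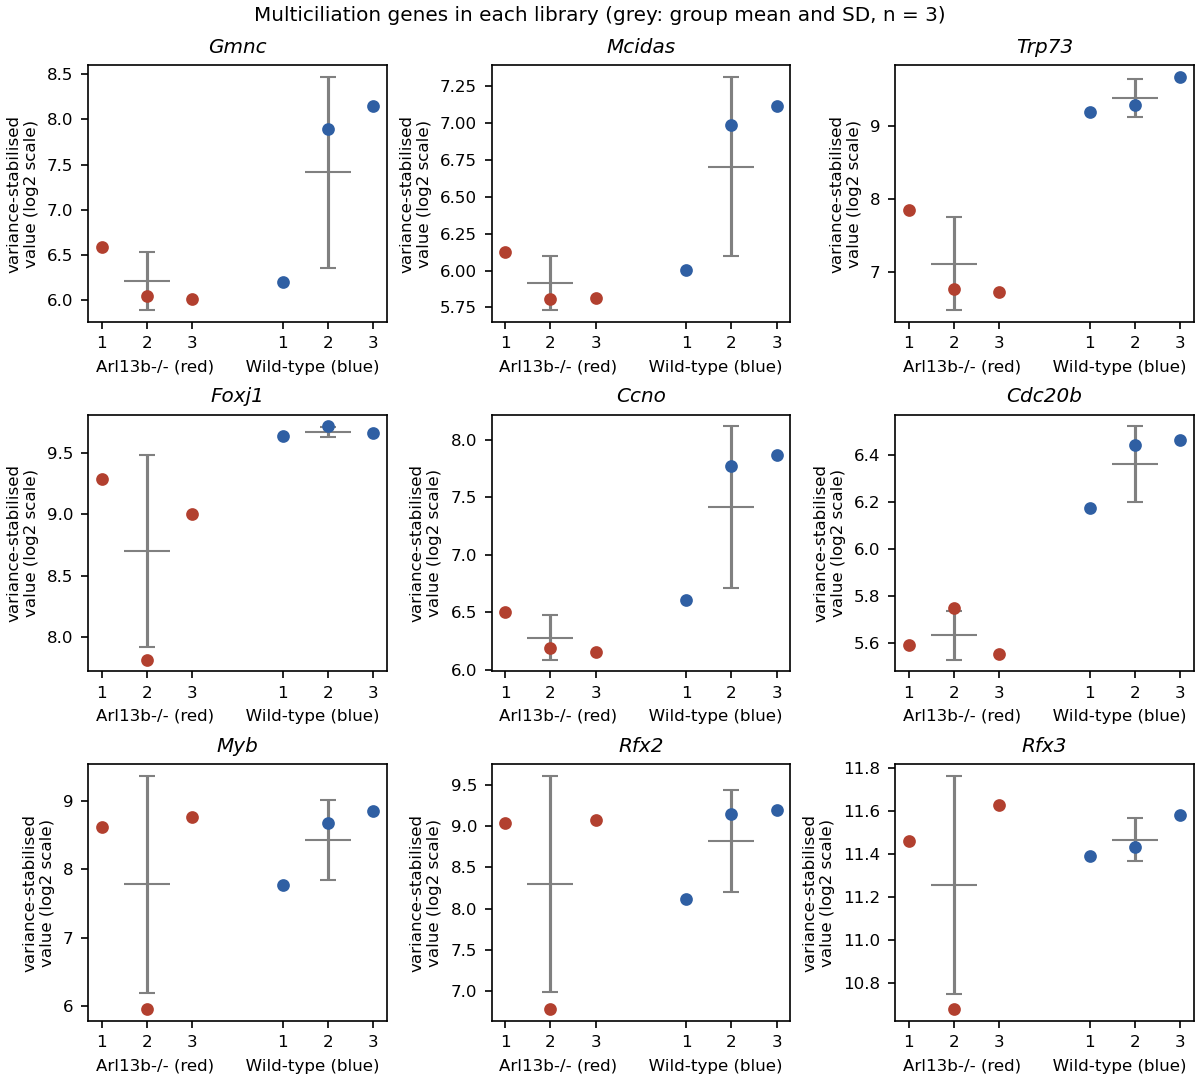
Variance-stabilised value (log2 scale, y axis, its range set for each gene) of the 9 genes in Arl13b-/- libraries 1 to 3 (red) and Wild-type libraries 1 to 3 (blue), with the group mean and SD in grey. For Trp73, Foxj1, Ccno and Cdc20b the red points all lie below the blue ones, whereas for Gmnc and Mcidas Wild-type 1 lies among the red points.

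Gmnc, at the top of the program, had 39.0, 14.6 and 13.6 normalised counts in Arl13b-/- 1 to 3, against 20.4, 172 and 218 in Wild-type 1 to 3. Wild-type 1 therefore lay among the Arl13b-/- libraries, and the groups overlapped. The mean was 22.4 ± 14.4 in Arl13b-/- and 137 ± 103 in Wild-type (SD, n = 3 each). On the log2 scale Gmnc differed by −1.20 ± 0.56 (SE) over 6 libraries and by −1.72 ± 0.21 over the 4 libraries without Arl13b-/- 2 and Wild-type 1.

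Mcidas, which works downstream of Gmnc, was a gene of few reads, again highest in Wild-type 2 and 3. It had 17.5, 7.87 and 7.99 normalised counts in Arl13b-/- 1 to 3, against 13.4, 66.7 and 77.8 in Wild-type 1 to 3. In reads this was about 5.99 to 24.0 in the Arl13b-/- libraries, against 24.9 to 101 in the Wild-type libraries. The groups overlapped through Wild-type 1 alone. The difference was −0.79 ± 0.34 (SE) over 6 libraries and −1.08 ± 0.14 over 4.

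Trp73 encodes p73, a transcription factor of the p53 family, and had the largest difference of the 9 genes on the variance-stabilised scale in both comparisons. It had 166, 49.7 and 47.0 normalised counts in Arl13b-/- 1 to 3, against 516, 561 and 751 in Wild-type 1 to 3. Unlike for Gmnc and Mcidas, Wild-type 1 was close to the other Wild-type libraries, at 0.787 times their mean, and the groups did not overlap. The mean was 87.4 ± 67.7 in Arl13b-/- and 609 ± 125 in Wild-type (SD, n = 3 each), a ratio of 0.144. Over the 4 libraries the ratio was 0.162, and those of Cdc20b at 0.106 and Gmnc at 0.135 were lower. The difference was −2.28 ± 0.38 (SE) over 6 libraries and −2.20 ± 0.37 over 4. Against the mean count of Wild-type 2 and 3, Arl13b-/- 1 had 0.252 times and Arl13b-/- 3 had 0.0717 times as much.

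Foxj1, the forkhead factor needed for motile cilia, was the steadiest of the 9 genes among Wild-type libraries. It had 557, 161 and 445 normalised counts in Arl13b-/- 1 to 3, against 729, 772 and 740 in Wild-type 1 to 3. The groups did not overlap, and the lowest value was that of Arl13b-/- 2. The ratio of means was 0.519 over 6 libraries and 0.662 over 4. On the log2 scale the difference was −0.97 ± 0.42 (SE) over 6 libraries and −0.54 ± 0.11 over 4, so it moved by more than 1.5 times with the 2 libraries that stood apart.

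Ccno encodes cyclin O, which is needed for the generation of basal bodies in multiciliated cells. It had 34.1, 19.7 and 18.4 normalised counts in Arl13b-/- 1 to 3, against 40.0, 154 and 168 in Wild-type 1 to 3. The groups did not overlap, but Wild-type 1 was only just above Arl13b-/- 1 and had 0.249 times the mean of Wild-type 2 and 3. The difference was −1.13 ± 0.39 (SE) over 6 libraries and −1.49 ± 0.14 over 4.

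Cdc20b, a relative of the mitotic activator Cdc20 that acts in centriole release from deuterosomes, had the fewest reads of the 9 genes. It had 3.63, 6.58 and 3.07 normalised counts in Arl13b-/- 1 to 3, against 19.2, 31.0 and 32.1 in Wild-type 1 to 3. That was about 4.98, 5.01 and 4.98 reads in Arl13b-/- 1 to 3, against 35.9, 46.9 and 40.9 reads in Wild-type 1 to 3. The groups did not overlap. Its mean lay under the minimum of 1 above the lowest value of the table, so it was the only 1 of the 9 genes not kept for testing. Wild-type 1 had 0.609 times the mean of Wild-type 2 and 3, and Arl13b-/- 2 had 1.96 times the mean of Arl13b-/- 1 and 3, whereas for Ccno and Mcidas Arl13b-/- 2 was below that mean. The ratio of mean normalised counts was 0.161 over 6 libraries and 0.106 over 4, and the difference of variance-stabilised means was −0.73 and −0.88.

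Myb, a transcription factor of progenitors that also takes part early in multiciliation, had 326, 11.9 and 369 normalised counts in Arl13b-/- 1 to 3, against 153, 341 and 394 in Wild-type 1 to 3. The 2 lowest values were those of the 2 libraries that stood apart, and the groups overlapped. The difference was −0.65 ± 0.83 (SE) over 6 libraries and −0.067 ± 0.10 over 4.

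Rfx2, an RFX factor of multiciliated cells, had 457, 51.2 and 471 normalised counts in Arl13b-/- 1 to 3, against 211, 499 and 520 in Wild-type 1 to 3. Its lowest values also belonged to Arl13b-/- 2 and Wild-type 1. It differed by −0.52 ± 0.72 (SE) over 6 libraries and by −0.12 ± 0.071 over 4, where the groups did not overlap but the ratio of means was 0.911. Rfx3, an RFX factor of both primary and motile cilia, had 2751, 1569 and 3093 normalised counts in Arl13b-/- 1 to 3, against 2610, 2695 and 2990 in Wild-type 1 to 3. Its groups overlapped, with a difference of −0.21 ± 0.29 (SE) over 6 libraries and 0.038 ± 0.080 over 4.

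**Figure D2:**
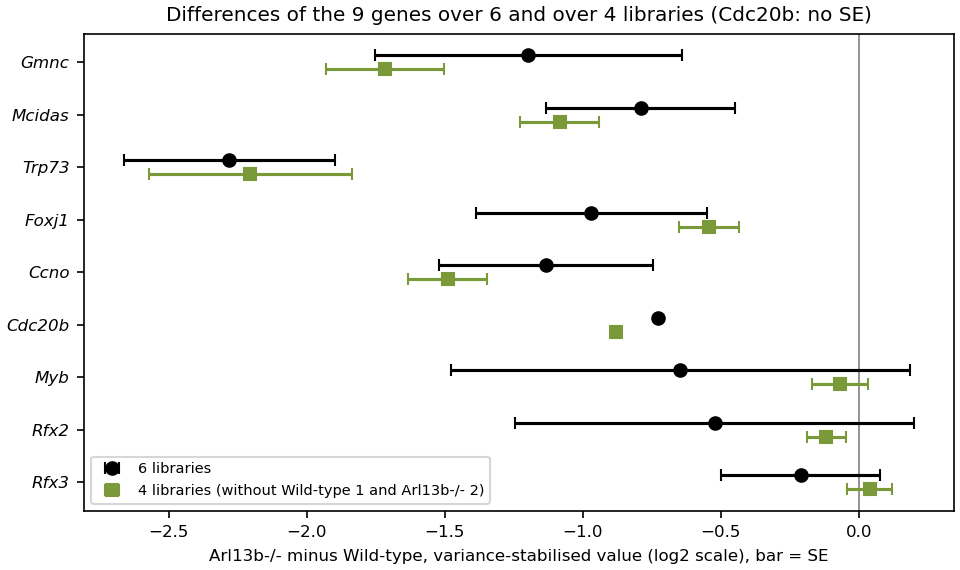
Arl13b-/- minus Wild-type difference of variance-stabilised means (log2 scale, x axis) for the 9 genes, over 6 libraries (black circles) and over the 4 libraries without Arl13b-/- 2 and Wild-type 1 (green squares). Bars are standard errors of the limma fit, and Cdc20b, outside the fit, has none. Trp73 lies farthest to the left at −2.28 and −2.20, and over 4 libraries Myb, Rfx2 and Rfx3 lie near 0.

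Of the 9 genes, 4 were lower in Arl13b-/- with non-overlapping groups over 6 libraries (Trp73, Foxj1, Ccno and Cdc20b), and none was higher. Cdc20b was not kept, and of the 8 members kept 3 were lower in this way, or 37.5%. Of all 14249 genes kept, 3.59% were lower and 4.67% higher in the same way. Over the 4 libraries 7 of the 9 genes were lower without overlap, the same 4 with Gmnc, Mcidas and Rfx2. Of the 8 members kept 6 were, or 75%, against 18.1% of all genes kept. None was higher, against 29.3%. In limma 0 of 14249 genes (0%) passed an adjusted p of 0.05 over 6 libraries, and 163 (1.14%) had an unadjusted p under 0.05. Over 4 libraries 36 genes (0.253%) passed, 26 lower and 10 higher, and 2053 (14.4%) had an unadjusted p under 0.05. The Y-linked genes Uty and Eif2s3y were among the 26 (limma, adjusted p = 0.000264 for each). The median difference of all genes kept was 0.0026 over 6 libraries and 0.023 over 4.

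The 2 libraries in which Gmnc, Mcidas and Ccno were high were also the only ones in which Y-linked transcripts were abundant. Uty had 0.727, 0 and 0 normalised counts in Arl13b-/- 1 to 3, against 1.07, 732 and 729 in Wild-type 1 to 3. Eif2s3y was listed at 0 in the 3 Arl13b-/- libraries and in Wild-type 1, against 434 and 445 in Wild-type 2 and 3. Both Y-linked genes were among the 5 whose pattern over the 6 libraries was most like that of Ccno, with a Pearson correlation of 0.983 for Uty and 0.973 for Eif2s3y. In the 4 libraries genotype and sex therefore cannot be told apart for any gene, the 9 and the listed genes below included. Wild-type 1, with almost no Y-linked transcript, was above each Arl13b-/- library for Trp73, Foxj1, Cdc20b and, by little, Ccno, but not for Gmnc or Mcidas.

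The genes most like Ccno over the 6 libraries, of 13554 compared, were Mcidas at a Pearson correlation of 0.993, Gmnc at 0.983, then Uty, Ppcs at 0.977 and Eif2s3y. The first 2 are members, and Ppcs, an enzyme of coenzyme A synthesis, differed by only −0.16 ± 0.20 (SE; limma, adjusted p = 0.990). For Trp73 they were Fam129a at 0.989, Rbm20 at 0.981, Dct at 0.971, Nxph4 at 0.968 and Prdm16 at 0.962. Rbm20, a splicing regulator, had 102, 60.2 and 59.9 normalised counts in Arl13b-/- 1 to 3, against 209, 293 and 382 in Wild-type 1 to 3, and differed by −1.41 ± 0.28 (SE). Prdm16, a transcriptional regulator of cortical progenitors and choroid plexus, had 1004, 395 and 476 in Arl13b-/- 1 to 3, against 1178, 1362 and 1681 in Wild-type 1 to 3. It differed by −1.18 ± 0.37 (SE). Dct had 21.8, 2.63 and 6.77 normalised counts in Arl13b-/- 1 to 3, against 197, 118 and 168 in Wild-type 1 to 3. Its difference of −1.96 ± 0.28 (SE) was the largest of the 5 genes most like Trp73. Fam129a differed by −0.73 ± 0.22 and Nxph4 by −0.48 ± 0.18 (SE), and none of the 5 passed (limma, adjusted p = 0.990 for each). For Foxj1 they were Sept8, Bckdha, Cyp4v3, Gnpda2 and Hmx3, between 0.989 and 0.994, and 188 genes exceeded 0.95 for Foxj1 against 12 for Trp73 and 14 for Ccno. With 6 libraries of which 2 stand apart, these values describe likeness of pattern and nothing more.

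Ccno, Mcidas and Cdc20b are next to each other on chromosome 13, in the order in which the RefSeq gene table lists its protein-coding genes. The neighbours on the side of Ccno, Dhx29, Skiv2l2, Plpp1 and Slc38a9, had overlapping groups over 6 libraries. Dhx29, an RNA helicase of translation initiation, had 2061, 1432 and 2096 normalised counts in Arl13b-/- 1 to 3, against 1476, 1895 and 2074 in Wild-type 1 to 3. It differed by 0.030 ± 0.24 (SE), Skiv2l2 by −0.17 ± 0.42, Plpp1 by 0.13 ± 0.53 and Slc38a9 by −0.44 ± 0.40 (limma, adjusted p = 0.995 for Dhx29 and 0.990 for the other 3). Gpx8, which lies within the span of Cdc20b, had 706, 54.0 and 644 normalised counts in Arl13b-/- 1 to 3, against 394, 778 and 695 in Wild-type 1 to 3, with overlapping groups. Gpx8 differed by −0.75 ± 0.81 (SE; limma, adjusted p = 0.990) over 6 libraries and by −0.11 ± 0.085 over 4 (adjusted p = 0.592). The other 4 neighbours differed by between −0.089 and 0.085 over 4 libraries. Gzma, the fourth gene on that side, was listed at 0 in all libraries but Arl13b-/- 3, where it had 0.618. Whether the libraries kept the strand of the RNA was not given in the sources used here, so reads of overlapping genes cannot be told apart.

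**Figure D3:**
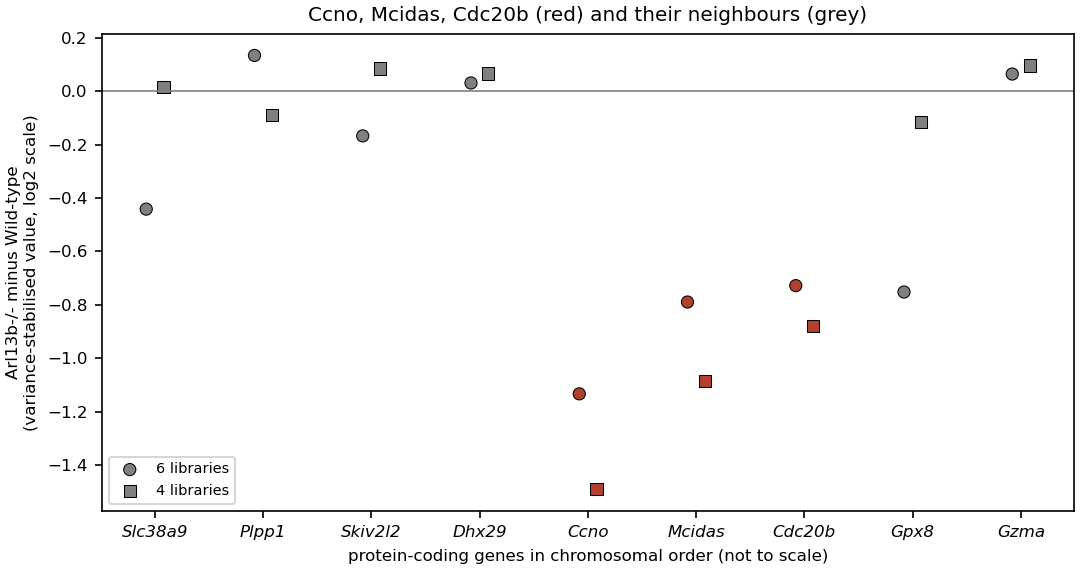
Arl13b-/- minus Wild-type difference (variance-stabilised value, log2 scale, y axis) of Ccno and its 4 nearest protein-coding neighbours on each side in chromosomal order (x axis, not to scale), over 6 libraries (circles) and 4 libraries (squares). Ccno, Mcidas and Cdc20b (red) lie at −1.49, −1.08 and −0.88 over 4 libraries, while the other neighbours (grey) lie between −0.11 and 0.096; over 6 libraries Gpx8 lies at −0.75.

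The 250 bases before the starts of these 3 neighbouring genes are shown because all 3 genes were lower in every Arl13b-/- library than in Wild-type 2 and 3, and those of both Trp73 starts because a gene-level value sums transcripts from the 2. The sequences are from RefSeq in build GRCm38.p6, 5′ to 3′ in the direction of transcription, whereas the submitters' processing notes name mm9 for the deposited values. The windows of Ccno (chr13:112987552-112987801), Mcidas (chr13:112993618-112993867) and Cdc20b (chr13:113035129-113035378) are on the + strand. Those of Trp73 are on the − strand, the upstream start at chr4:154139876-154140125 and the internal start at chr4:154097174-154097423. Capitals mark matches, on either strand, to an RFX half-site (GTTGCC), a forkhead site (TGTTTAC), an E2F site (TTNNCGC), a MYB site (TAACNG) or the p53-family half-site.
Ccno: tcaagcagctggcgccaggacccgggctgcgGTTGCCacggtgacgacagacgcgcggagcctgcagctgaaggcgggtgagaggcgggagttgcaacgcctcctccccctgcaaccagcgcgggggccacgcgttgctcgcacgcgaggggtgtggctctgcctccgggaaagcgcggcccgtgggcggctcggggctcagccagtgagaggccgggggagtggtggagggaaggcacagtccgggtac
Mcidas: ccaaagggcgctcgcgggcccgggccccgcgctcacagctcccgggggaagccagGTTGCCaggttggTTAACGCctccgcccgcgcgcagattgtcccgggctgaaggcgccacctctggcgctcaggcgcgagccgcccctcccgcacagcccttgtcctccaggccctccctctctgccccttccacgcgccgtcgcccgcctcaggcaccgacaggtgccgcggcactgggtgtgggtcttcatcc
Cdc20b: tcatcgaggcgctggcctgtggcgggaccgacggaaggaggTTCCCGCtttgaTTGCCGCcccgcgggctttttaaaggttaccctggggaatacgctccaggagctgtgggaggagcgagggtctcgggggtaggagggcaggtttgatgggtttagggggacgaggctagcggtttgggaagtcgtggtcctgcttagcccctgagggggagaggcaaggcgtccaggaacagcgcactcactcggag
Trp73 upstream start: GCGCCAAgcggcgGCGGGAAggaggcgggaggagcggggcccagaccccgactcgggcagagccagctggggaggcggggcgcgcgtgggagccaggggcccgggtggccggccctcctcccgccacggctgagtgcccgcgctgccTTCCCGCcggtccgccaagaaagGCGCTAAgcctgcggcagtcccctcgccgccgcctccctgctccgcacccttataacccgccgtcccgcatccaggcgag
Trp73 internal start: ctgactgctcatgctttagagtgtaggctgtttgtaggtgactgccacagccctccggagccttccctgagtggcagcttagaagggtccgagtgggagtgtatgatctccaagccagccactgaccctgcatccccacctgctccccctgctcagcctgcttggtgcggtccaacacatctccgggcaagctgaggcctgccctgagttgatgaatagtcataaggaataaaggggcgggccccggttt

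Ccno held an RFX half-site from −219 to −214 relative to its start, and Mcidas 1 from −195 to −190 with an E2F site from −182 to −176. Cdc20b held E2F sites from −209 to −203 and from −197 to −191. The window of the upstream Trp73 start held 4 E2F sites and that of the internal start no match to any of the 5 motifs. Among 10 windows of 8 of the genes (Foxj1 was not matched), 3 held the RFX half-site, the other being that of Rfx2, against 10.4% of 32841 windows of all genes. An E2F site was in 4 of the 10 windows, the other being that of Myb, against 17% of all windows. The MYB site was in 1 window, that of Rfx2, where its last base is the first of the RFX half-site, against 19.8% of all windows. The forkhead site was in 0 of 10 and the p53-family half-site in 0 of 10, against 3.17% and 7.13% of all windows. Neither Gmnc window nor that of Rfx3 held any of the 5. These are matches of letters in short windows, and binding was not measured.

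Cdc20b is also the host of the miR-449 genes, whose mature 5p products act in multiciliation. They are shown for their shared seed, bases 2 to 8, which is in capitals (RefSeq, GRCm38.p6).
mmu-miR-449a-5p: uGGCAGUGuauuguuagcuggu
mmu-miR-449c-5p: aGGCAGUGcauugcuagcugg
The poly(A) libraries do not measure mature miRNAs, and Mir449a, Mir449b and Mir449c were listed at 0 in all 6 libraries.

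Deup1, which builds the deuterosome on which centrioles multiply, was the other regulator with the smallest p. It had 10.2, 21.0 and 7.39 normalised counts in Arl13b-/- 1 to 3, against 44.4, 27.8 and 32.3 in Wild-type 1 to 3, so the groups did not overlap. The difference of −0.54 ± 0.20 (SE) did not pass over all genes (limma, adjusted p = 0.990), nor did the −0.58 ± 0.11 over 4 libraries (adjusted p = 0.132). Of 23 other regulators and deuterosome genes tested, 0 passed in limma over 6 libraries and 0 over 4, and Deup1 alone had an unadjusted p under 0.05 over 6. Their median difference was −0.15 over 6 libraries and 0.044 over 4, and Cby1, Fank1 and Pcm1, next by p, differed by 0.41 ± 0.38, 0.34 ± 0.40 and −0.34 ± 0.44 (SE). Deup1 was the only 1 of the 23 lower without overlap over 6 libraries, or 4.35%, against 3.59% of all genes kept. Over 4 libraries 3 of the 23 were lower without overlap, or 13%, against 18.1%, and 5 were higher, against 29.3% of all genes kept. Unlike Gmnc, Mcidas and Ccno, Deup1 was highest in Wild-type 1.

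Of 13 tested relatives of the 9 genes in their families, 0 passed over 6 libraries (limma, 1 with an unadjusted p under 0.05) and 0 over 4. That 1 was Trp63, the p53-family factor of stratified epithelia, which had 38.5, 6.38 and 2.89 normalised counts in Arl13b-/- 1 to 3, against 384, 181 and 101 in Wild-type 1 to 3. Trp63 differed by −2.08 ± 0.47 (SE; adjusted p = 0.990), and over 4 libraries by −1.59 ± 0.37 (adjusted p = 0.176). Among RFX relatives, Rfx5 differed by −0.44 ± 0.31 and Rfx7 by −0.37 ± 0.32, and Fzr1, a relative of Cdc20, by 0.25 ± 0.19 (SE). Of 17 tested markers of surface and airway epithelium, 0 passed in limma over 6 libraries (11 lower with an unadjusted p under 0.05) and 0 over 4 (12 lower). Their median difference was −1.96 over 6 libraries and −1.41 over 4, and 13 of 17 were lower in Arl13b-/- without overlap over 6 libraries, or 76.5%, against 3.59% of all genes kept. Over 4 libraries 14 of 17 were, or 82.4%, against 18.1%. The summed level of the 18 markers listed was 226 to 2383 normalised counts in Arl13b-/- and 3536 to 16831 in Wild-type. Within Wild-type it was highest in Wild-type 1 and lowest in Wild-type 3, the reverse of Trp73. Krt5, Krt8 and Cdh1 were among those listed at 0 in Arl13b-/- 2. Their part in the values of Trp73 was not tested.

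Genes of the motile axoneme, among them known targets of Foxj1 and RFX factors, had mostly negative differences that did not pass. Of 31 tested, 27 were below 0 over 6 libraries and 22 over 4, and 0 passed in limma over 6 libraries (0 with an unadjusted p under 0.05) and 0 over 4 libraries (7 lower and 1 higher with an unadjusted p under 0.05). The median difference was −0.34 over 6 libraries and −0.076 over 4. Over 6 libraries 6 of 31 were lower without overlap, or 19.4%, against 3.59% of all genes kept, and 1 was higher, against 4.67%. Over 4 libraries 14 of 31 were lower without overlap, or 45.2%, against 18.1% of all genes kept, and 2 were higher, against 29.3%. Cfap52, an axonemal protein, had 6.55, 22.3 and 6.14 normalised counts in Arl13b-/- 1 to 3, against 80.7, 21.8 and 25.1 in Wild-type 1 to 3. Arl13b-/- 2 was within the range of the Wild-type libraries, and the difference was −0.66 ± 0.32 (SE; adjusted p = 0.990), or −0.54 ± 0.11 over 4 libraries (adjusted p = 0.137). Tekt2, a tektin of axonemal microtubules, had 44.9, 55.2 and 28.1 in Arl13b-/- 1 to 3, against 136, 72.4 and 68.0 in Wild-type 1 to 3. It differed by −0.60 ± 0.26, Cfap126 by −0.79 ± 0.33 and Ccdc114, of the outer dynein arm docking complex, by −0.50 ± 0.21 (SE; limma, adjusted p = 0.990 for the 3).

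Wild-type 1 had the highest value of the 6 libraries for 22 of these 31 axoneme genes, or 71%, against 15.4% of all genes kept. Among the 8 members kept, Wild-type 1 was highest for none and Wild-type 3 for 6. In Wild-type 1 most of these axoneme genes thus had their highest value, while Gmnc and Mcidas were at 0.105 and 0.185 times the mean of Wild-type 2 and 3. The summed level of the 43 axoneme genes measured was 4260, 4769 and 4667 normalised counts in Arl13b-/- 1 to 3. In Wild-type 1 to 3 it was 4917, 4458 and 4287, so the sums of the 2 groups overlapped.

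**Figure D4:**
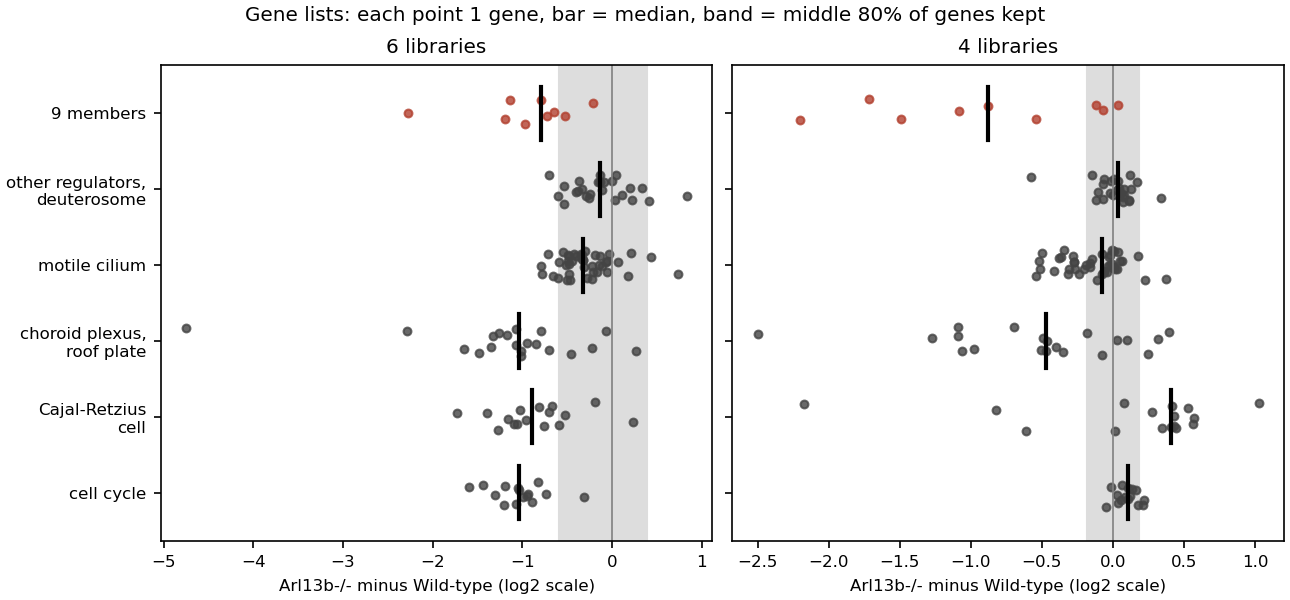
Arl13b-/- minus Wild-type difference (variance-stabilised value, log2 scale, x axis) of each gene in 6 lists (y axis), over 6 libraries on the left and 4 on the right, with the list median as a bar and the middle of all genes kept as a grey band. Over 4 libraries 6 of the 9 members lie to the left of the band, while the median of the motile cilium list lies within it.

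Most markers of the choroid plexus and roof plate also had negative differences. Of 18 tested, 17 were below 0 over 6 libraries and 13 over 4, with medians of −1.07 and −0.47. In limma 0 passed over 6 libraries (4 lower with an unadjusted p under 0.05). Over 4 libraries 3 passed, all lower (12 lower and 1 higher with an unadjusted p under 0.05). Over 6 libraries 6 of 18 were lower without overlap of the groups, or 33.3%, against 3.59% of all genes kept. Over 4 libraries 12 were, or 66.7%, against 18.1%. Ttr, the thyroxine carrier of the choroid plexus, had 126, 1.32 and 227 normalised counts in Arl13b-/- 1 to 3, against 25702, 1211 and 1322 in Wild-type 1 to 3. Over 4 libraries Ttr differed by −2.50 ± 0.20, Clic6, a chloride channel protein, by −1.28 ± 0.12, and Wnt2b, a ligand of the cortical hem, by −1.09 ± 0.092 (SE; limma, adjusted p = 0.0323, 0.0354 and 0.0323). Over 4 libraries genotype and sex cannot be told apart for these 3 genes, and over 6 libraries none of the 3 passed (limma, adjusted p = 0.990 for each). The summed level of the 20 markers was 1176 to 8085 normalised counts in Arl13b-/- and 9641 to 31814 in Wild-type, with Otx2, Aqp1, Kcnj13, Msx1 and Msx2 listed at 0 in Arl13b-/- 2. In Wild-type 1 Ttr was higher than in Wild-type 2 and 3 while Gmnc, Mcidas and Ccno were lower. The part of choroid plexus RNA in the values of the 9 genes was not tested.

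Cajal-Retzius cell markers other than Trp73 had mostly negative differences over 6 libraries and mostly positive ones over 4. Their median difference was −0.89 over 6 libraries, where 15 of 16 were below 0 and 1 above. Over 4 libraries it was 0.41, where 3 of 16 were below 0 and 13 above. None of 16 passed in limma over 6 libraries (1 with an unadjusted p under 0.05, against 1.14% of all genes kept). None passed over 4 (13 with an unadjusted p under 0.05, 3 lower and 10 higher, against 14.4%). Over 6 libraries 1 of 16 was lower without overlap of the groups, or 6.25%, against 3.59% of all genes kept. Over 4 libraries 3 were lower in this way, or 18.8%, against 18.1%, and 11 were higher, against 29.3% of all genes kept. Reln, the secreted signal of Cajal-Retzius cells, had 1092, 1328 and 1470 normalised counts in Arl13b-/- 1 to 3, against 8100, 1992 and 2637 in Wild-type 1 to 3. The difference of Reln was −1.40 ± 0.54 (SE; limma, adjusted p = 0.990), and over 4 libraries −0.82 ± 0.18 (adjusted p = 0.151). Reln was thus among the 3 markers below 0 over 4 libraries, as was Tbr1 at −2.17 ± 0.61 (SE). Ebf3 at 0.43 ± 0.13 and Zic2 at 0.014 ± 0.049 were above 0 there. The summed level of the 16 markers was 17799 to 59514 normalised counts in Arl13b-/- and 39311 to 48337 in Wild-type, and none was at 0. A gene-level value does not separate transcripts from the upstream and the internal start of Trp73, and their part in its difference was not tested.

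Myb and Rfx2 were low where cell cycle genes were low. The 15 cell cycle genes summed to 2157 normalised counts in Arl13b-/- 2 and 21893 in Wild-type 1, against 87501 to 101497 in the other 4 libraries. In limma 0 of 15 passed over 6 libraries or over 4. With an unadjusted p under 0.05 there were 0 over 6 and 3 over 4, all 3 higher in Arl13b-/-, against 1.14% and 14.4% of all genes kept. Over 4 libraries 10 of the 15 were higher without overlap, against 29.3% of all genes kept. The 10 radial glial markers summed to 3992 in Arl13b-/- 2 and 47886 in Wild-type 1, against 113696 to 143506 in the other 4. Postmitotic neuron markers were highest in the same 2 libraries, at 581894 in Arl13b-/- 2 and 261439 in Wild-type 1, against 148772 to 157645. Blood cell markers, of interest since Myb acts in haematopoietic progenitors, summed to 2577 to 291934 in Arl13b-/- and 28265 to 76496 in Wild-type, with Hbb-y, Hba-x, Hbb-bh1 and Gata1 among those at 0 in Arl13b-/- 2. The highest of these sums was that of Arl13b-/- 3, whose Myb count lay between those of Wild-type 2 and 3. Over 4 libraries 13 of the 15 blood cell markers were above 0, and 11 were higher without overlap, against 29.3% of all genes kept. None of the 15 passed in limma over 4 libraries (8 higher with an unadjusted p under 0.05, against 14.4% of all genes kept). The part of these cell types in Myb and Rfx2 was not tested.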

How the data were processed

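Groups of the 6 poly(A) libraries follow the labelled genotype. The deposited table holds log2-scale values, which the authors made from normalised counts by a variance-stabilising transformation. Per the submitters' processing notes, build mm9 and the tools STAR 2.6.0, CASAVA, DESeq2, DESeq 1.16.1 and Salmon 0.9.1 were used, in roles not stated. Neither annotation nor filters are given there.

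The lowest value, 5.13, is that of a count of 0 and fixes the parametric transformation, which was inverted to normalised counts. The most frequent low value in a library was taken as 1 read. Whole numbers of reads, to within 0.05, made up 70.1% to 79.7% of the values below 30 reads, so no count test was run. Intervals were not computed, and depth limits the precision of low counts.

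Genes with a mean at least 1 above the lowest value (14249) were tested between groups in limma 3.58.1 (R 4.3.3), two-sided, with a trend of variance on mean, at a Benjamini-Hochberg adjusted p of 0.05, and the fit was tested on simulated data. The members and lists were chosen with earlier results of these data known. Named genes are the members, Arl13b, up to 4 per list by smallest p, listed genes past the threshold, the 5 most like Trp73, Ccno and Foxj1, and 4 neighbours of Ccno on each side. Emx1 and the Y-linked and marker sums describe libraries. Not every gene the rule allows is named. Deviations of same-numbered libraries from their group means correlated at −0.71, −0.71 and 0.62 for numbers 1 to 3. Arl13b-/- 2 and Wild-type 1, which stood apart, correlated at 0.71 and weigh on all these values. Whether the numbers pair libraries thus cannot be told, and the fit did not pair them.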

Additional observations from a re-analysis of the deposited data

How the results depend on the processing

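The number of genes past the threshold was 0 over 6 libraries in limma (163 at an unadjusted p under 0.05). It stayed at 0 with a stricter filter, median centring, quantile normalization, no trend, the log2 of inverted counts plus 1 and the replicate block. It was 3 with no filter, 36 without both libraries that stood apart, and between 0 and 4 on leaving out 1 library, with the 4 found without Wild-type 1. The Y-linked genes Uty and Eif2s3y were among the 36, and also among the 4 (limma, adjusted p = 0.0273 for each). The replicate block gave 0 genes; with 1 library of each group per number, a block cannot change a difference, so it says nothing on the members' values.

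Of the members, Trp73, Ccno, Mcidas, Gmnc and Cdc20b moved beyond the spread of their libraries on the scale of log2 inverted counts plus 1, to −3.02, −2.08, −1.90, −2.16 and −2.41, since the deposited scale compresses low counts. Quantile normalization brought every member kept but Rfx3 nearer to 0, by more than 1.5 times for Mcidas (−0.46), Rfx2 (−0.28) and Myb (−0.35); Trp73 was at −2.09, Gmnc at −0.87, Foxj1 at −0.84, Ccno at −0.82 and Rfx3 at −0.28. On leaving out 1 library Trp73 ranged from −2.65 to −2.08, Ccno from −1.54 to −0.91, Gmnc from −1.80 to −0.83, Mcidas from −1.14 to −0.58 and Foxj1 from −1.26 to −0.53. Rfx2 ranged from −0.91 to 0.24, Rfx3 from −0.40 to 0.078 and Myb from −1.14 to 0.26, so the signs of these 3 depend on which library is left out. Under the stricter filter 5 of the 9 members remained.

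Sign changes among other named genes concerned differences that had not passed. Without both libraries that stood apart, Pcm1 was at 0.071, Skiv2l2 at 0.085, Slc38a9 at 0.015 and Plpp1 at −0.089. Quantile normalization took Dhx29 to −0.028 and Ppcs to 0.11. On leaving out 1 library, ranges that crossed 0 were −0.062 to 0.55 for Fank1, −0.62 to 0.16 for Pcm1, −0.11 to 0.20 for Dhx29, −0.40 to 0.27 for Skiv2l2, −1.23 to 0.15 for Gpx8 and −0.38 to 0.42 for Plpp1. The causes were not tested.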
